A study of Homo sapiens with 4 samples.

Results

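The ATP-binding cassette (ABC) genes are described here as measured in KBM5, a human chronic myeloid leukemia cell line that carries the BCR-ABL fusion kinase. Members were chosen by name, as genes named ABC with a subfamily letter from A to G and a number whose description does not call them a pseudogene. The rule matched 46 names, removed ABCC13 as a pseudogene, and left 45 of the 50868 genes of the deposited table. RNA was sequenced with a stranded mRNA kit from 4 libraries of the same line: untreated cells (CTR), cells given DSF, cells given IM, and cells given both (IM-DSF). The labels state no dose or time and do not spell out the codes; IM and DSF are read as imatinib, a BCR-ABL inhibitor, and disulfiram. There was 1 library per group, so every difference below is between 2 libraries, has no replicate check and carries no p-value.

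ABC proteins hold a nucleotide-binding domain that hydrolyses ATP, and most use it to move a substrate across a membrane. Several of them, first of all ABCB1 (P-glycoprotein), ABCG2 (BCRP) and ABCC1 (MRP1), pump drugs out of cells and are known for multidrug resistance in leukemia; imatinib is a known substrate of ABCB1 and ABCG2. Others export lipids, serve mitochondria, peroxisomes or lysosomes, and the members of the E and F subfamilies have no membrane span and act on ribosomes.

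Levels are FPKM, fragments per kilobase of gene and per 1e+06 fragments. Denominators of 12443300 (IM-DSF) to 15810600 (IM) fragments were recovered, and with them the whole number of fragments behind each value, so that ratios carry 95% intervals (exact conditional binomial) for counting error only. Of 7 myeloid lineage markers 5 had a mean above 1 FPKM, among them CD33 and SPI1, a myeloid transcription factor, and the list summed to 551 to 930 FPKM, while KIT was listed at 0 and CD34 had at most 0.00554 FPKM. BCR and ABL1 were expressed, but gene totals show neither the fusion nor which line it is. Summed T cell, B cell, erythroid, platelet and stromal or epithelial markers were at most 0.623 FPKM for any list in any library.

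The family was expressed unevenly. With a mean across the 4 libraries of 1 FPKM or more taken as expressed, 17 of 45 members were expressed (37.8%, beside 47.6% of the 19691 protein-coding genes), 8 lay between 0.1 and 1 FPKM, 11 lay above 0 and under 0.1, and 9 were listed at 0 in all 4 libraries. By subfamily, 3 of 12 ABCA, 3 of 9 ABCB, 4 of 11 ABCC, 3 of 4 ABCD, the single ABCE, 3 of 3 ABCF and 0 of 5 ABCG genes were expressed. The 4 most abundant members, ABCB10, ABCE1, ABCF2 and ABCF1, made up 68.8% (IM) to 73.9% (CTR) of the summed FPKM of the family. A wide gap followed them: the lowest value of ABCF1 was 26.7 FPKM and the highest value of the next member, ABCC4, was 10.4 FPKM. From ABCC4 down to ABCC5 each member's range over the libraries overlapped that of its neighbour on the deposited scale. Those ranges run over 4 libraries that differ in treatment, and the spread between replicates is unknown. ABCB8 lay apart from ABCD4 below it.

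**Figure D1:**
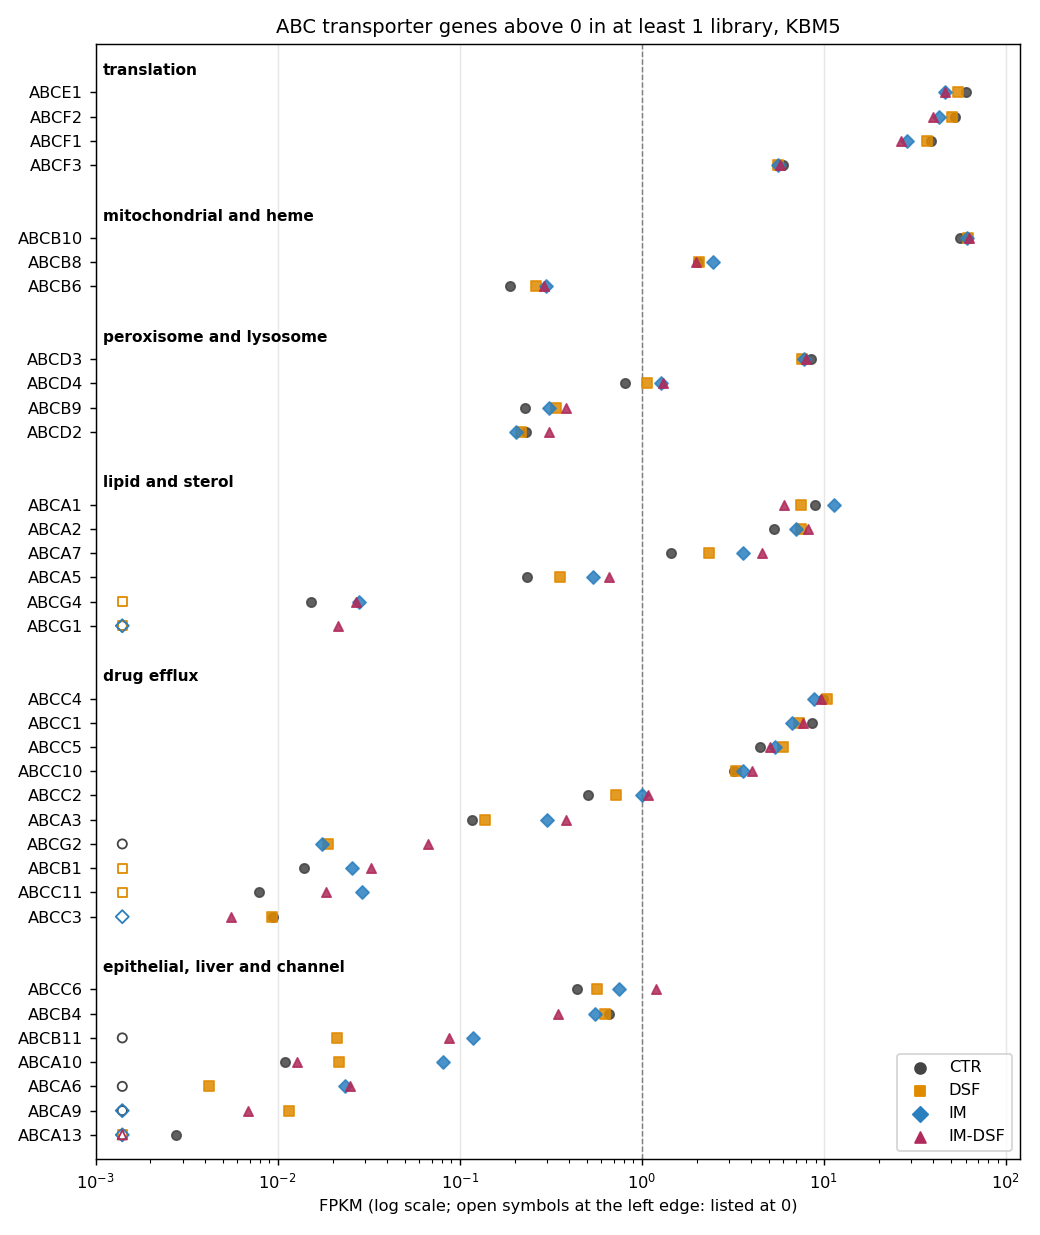
FPKM of 34 members above 0 in at least 1 library, on a log axis, grouped by role, with 1 symbol per library; open symbols at the left edge are values listed at 0 and the dashed line marks 1 FPKM. The translation genes and ABCB10 stand to the right, near 27 to 63 FPKM except ABCF3, while ABCB1 and ABCG2 lie under 0.1 FPKM in every library.

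The drug efflux list held 11 pumps, of which 4 were expressed, and all 4 belong to the ABCC subfamily. ABCC4 (MRP4, which exports cyclic nucleotides and nucleoside analogues) had 9.86 FPKM untreated, 10.4 with DSF, 8.84 with IM and 9.64 with both. ABCC1, which exports glutathione conjugates, had 8.57, 7.34, 6.72 and 7.71 FPKM in the same order. ABCC5 (MRP5, a nucleotide exporter) had 4.48, 5.99, 5.38 and 5.07 FPKM. The level of ABCC1 was highest in CTR and that of ABCC5 lowest there. ABCC4 was lowest in IM, at 0.896 times CTR (0.848 to 0.946), and IM-DSF was 1.09 times IM (1.03 to 1.16). ABCC10 (MRP7, an exporter of taxanes and vinca alkaloids) had 3.20, 3.30, 3.58 and 4.01 FPKM and was highest in IM-DSF. None of the 4 pumps differed by more than 1.34 times between any 2 libraries. ABCC1 in IM was 0.783 times CTR (95% interval 0.724 to 0.847), and ABCC10 in IM-DSF was 1.25 times CTR (1.12 to 1.40).

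ABCB1 (ENSG00000085563, chromosome 7, 87503633 to 87713323, minus strand) was nearly silent. Its values were 0.0140 FPKM untreated, 0 with DSF, 0.0256 with IM and 0.0325 with both, which stand for 2, 0, 4 and 4 fragments. The library without a fragment allows up to 0.0207 FPKM (3 fragments). ABCG2 (ENSG00000118777, chromosome 4, 88090264 to 88231322, minus strand) was listed at 0 in CTR, which allows up to 0.0286 FPKM, and had 0.0189 with DSF, 0.0175 with IM and 0.0669 with both, or 2, 2 and 6 fragments. The IM-DSF to IM ratio of ABCG2 was 3.81 with an interval of 0.682 to 38.6, and that of ABCB1 was 1.27 (0.237 to 6.82), so no difference in either pump was detectable at this depth between those libraries. Between IM-DSF and CTR, ABCG2 had 6 against 0 fragments, and the lower limit of the ratio was 1.37. The ABCG2 fragment numbers rest on a searched gene length, so a common factor could be missed. The recovered numbers are all even. With fewer fragments that lower limit would be lower, and the interval could then include equal levels. ABCC3 (MRP3, a basolateral exporter of conjugates) had 2, 2, 0 and 1 fragments, ABCC11 (an exporter of conjugated steroids and cyclic nucleotides) had 1, 0, 4 and 2, and ABCB5 was listed at 0 in all 4 libraries.

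The other pump genes lay between those extremes, and both were higher in the 2 libraries with IM. ABCC2 (MRP2, the canalicular exporter of bilirubin glucuronides) had 0.503 FPKM untreated, 0.720 with DSF, 1.01 with IM and 1.08 with both, and was 2.004 times CTR in IM (1.57 to 2.57) and 2.14 times in IM-DSF (1.67 to 2.77). ABCA3, a lipid transporter of lamellar bodies that also sequesters drugs in lysosomes of leukemia cells, had 0.117, 0.137, 0.302 and 0.384 FPKM, from 16, 19, 45 and 45 fragments. Its ratio to CTR was 2.58 in IM (1.43 to 4.89) and 1.17 in DSF (0.571 to 2.44). In IM-DSF it was 3.28 (1.82 to 6.21). Both genes fell short of a mean of 1 FPKM and so are not among the 17 members counted for differences below.

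**Figure D2:**
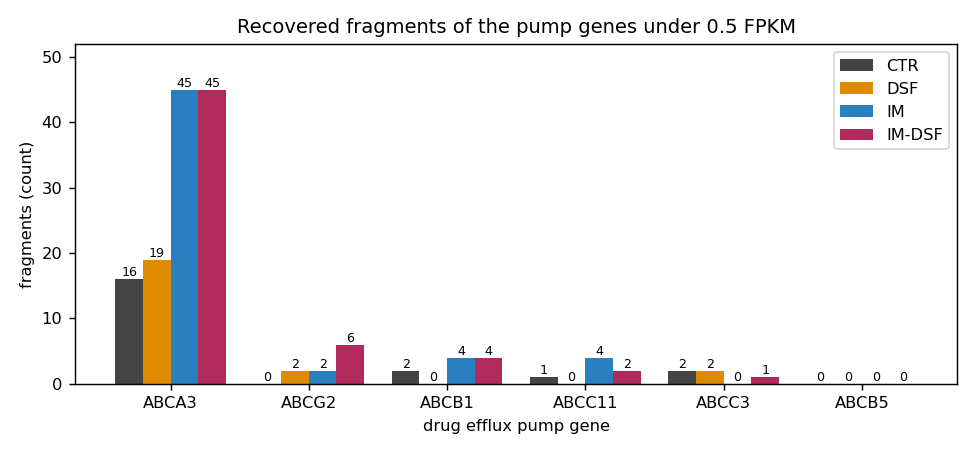
Recovered fragments (linear axis, number above each bar) of the 6 pump genes under 0.5 FPKM in the 4 libraries. ABCA3 has 16 to 45 fragments, ABCG2, ABCB1, ABCC11 and ABCC3 have 0 to 6, and ABCB5 has none.

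The CpG content at start sites differed between expressed and silent members, with overlap. RefSeq promoter windows of 300 bases (GRCh38.p14, 250 before to 50 after the start) were given for 35 of the 45 members, 53 windows in all. Taking the window richest in CpG for each gene, the 14 expressed members had a median of 29 CpG dinucleotides (15 to 66), the 14 members under 0.1 FPKM or at 0 had 8.5 (1 to 35), and all 27305 genes of the table had 16. The 7 members between 0.1 and 1 FPKM had a median of 29. No medians are given for all expressed or all silent genes of the table. Whether the contrast is particular to this family was therefore not tested. The ranges overlap: ABCG2 had 35 CpG and next to no RNA, and ABCC2 had 1 CpG at 0.827 FPKM on average. Windows of 5 members are printed 5′ to 3′ on the coding strand with every CpG in capitals, to show this contrast. They are ABCF1 (chr6:30571192-30571491, plus strand) and ABCA1 (chr9:104928106-104928405, minus), both expressed; ABCA7 (chr19:1039857-1040156, plus), the expressed member with the largest difference on the log2(FPKM + 1) scale; ABCC2 (chr10:99782390-99782689, plus), with its lone CpG; and the CpG-richer of the 2 windows of ABCB1 (chr7:87600835-87601134, minus), a gene next to silent here.
ABCF1: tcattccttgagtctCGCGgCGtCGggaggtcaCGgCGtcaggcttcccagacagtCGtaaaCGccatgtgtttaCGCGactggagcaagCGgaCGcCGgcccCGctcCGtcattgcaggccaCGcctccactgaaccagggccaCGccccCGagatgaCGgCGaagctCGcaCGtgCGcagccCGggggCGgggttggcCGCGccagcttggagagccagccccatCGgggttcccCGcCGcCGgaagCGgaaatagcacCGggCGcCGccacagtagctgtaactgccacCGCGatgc
ABCA1: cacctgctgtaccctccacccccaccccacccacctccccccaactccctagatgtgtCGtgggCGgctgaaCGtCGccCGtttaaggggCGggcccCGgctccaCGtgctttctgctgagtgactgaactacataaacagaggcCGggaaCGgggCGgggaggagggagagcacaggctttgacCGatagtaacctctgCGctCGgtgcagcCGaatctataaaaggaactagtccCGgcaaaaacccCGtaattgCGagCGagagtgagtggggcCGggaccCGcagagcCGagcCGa
ABCA7: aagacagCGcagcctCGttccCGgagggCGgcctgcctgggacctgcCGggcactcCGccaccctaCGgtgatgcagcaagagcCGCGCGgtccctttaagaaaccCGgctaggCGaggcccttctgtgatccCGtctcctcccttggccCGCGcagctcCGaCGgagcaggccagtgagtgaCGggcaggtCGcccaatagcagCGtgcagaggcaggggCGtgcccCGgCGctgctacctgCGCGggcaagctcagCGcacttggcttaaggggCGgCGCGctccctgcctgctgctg
ABCC2: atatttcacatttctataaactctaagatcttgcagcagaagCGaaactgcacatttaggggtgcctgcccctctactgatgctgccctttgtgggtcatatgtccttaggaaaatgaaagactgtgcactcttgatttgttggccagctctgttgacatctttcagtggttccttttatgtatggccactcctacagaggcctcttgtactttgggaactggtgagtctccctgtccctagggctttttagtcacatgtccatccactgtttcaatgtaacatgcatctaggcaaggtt
ABCB1: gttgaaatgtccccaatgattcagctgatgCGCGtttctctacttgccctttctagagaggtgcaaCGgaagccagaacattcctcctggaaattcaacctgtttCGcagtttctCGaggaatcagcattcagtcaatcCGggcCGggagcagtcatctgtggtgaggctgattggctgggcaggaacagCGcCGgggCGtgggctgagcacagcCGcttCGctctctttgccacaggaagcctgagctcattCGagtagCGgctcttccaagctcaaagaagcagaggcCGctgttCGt
The printed windows hold 37, 23, 29, 1 and 16 CpG in that order. The E-box CACGTG, searched on both strands, is in the windows of ABCF1 and ABCA1, and in 7.26% of all 35116 windows. TATAAA, likewise on both strands, is in those of ABCA1 and ABCC2, and in 11.5% of all windows. GGGCGG, the GC box, is in those of ABCF1, ABCA1 and ABCA7, and in 45.0% of all windows. Taking only the window richest in CpG for each gene, the GC box is in that of 12 of 14 expressed members, 8 of the 21 others and 12842 of all 27305 genes. ABCG2 is not among those 8, although other windows of it hold the GC box. These are matches of letters and not evidence of binding.

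**Figure D3:**
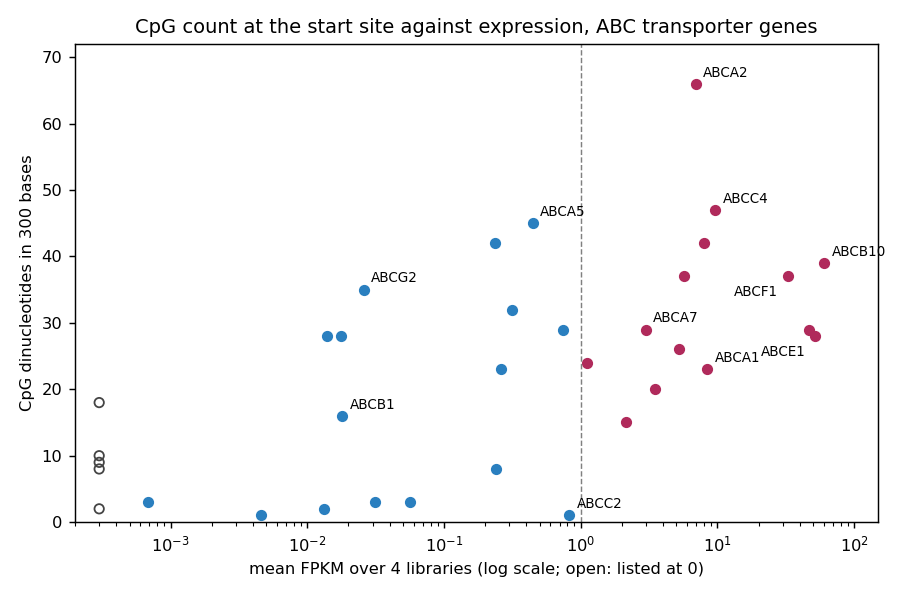
CpG dinucleotides in the 300-base start window (the richest window per gene) against mean FPKM on a log axis for the 35 members with a window; red points are expressed, blue points under 1 FPKM and open points listed at 0. Expressed members have 15 or more CpG. Members under 0.1 FPKM or at 0 range from 1 to 35, and those between 0.1 and 1 FPKM from 1 to 45.

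Differences were taken on the log2(FPKM + 1) scale for members with a mean of at least 1 FPKM, 17 genes, and called by size, at 1 log2 unit (2-fold) and at 0.585 (1.5-fold). In DSF against CTR, 0 of 17 members passed either rule, beside 1.12% of 11004 genes at 2-fold and 4.53% at 1.5-fold. In IM against CTR, 0 passed at 2-fold (background 2.43%) and 1, ABCA7, at 1.5-fold (10.3%). In IM-DSF against CTR, ABCA7 alone passed at 2-fold (4.28%) and at 1.5-fold (16.3%). In IM-DSF against IM, 0 passed at 2-fold (1.74%) and 1, ABCA1, was lower at 1.5-fold (5.94%). In IM-DSF against DSF, 0 passed at 2-fold (2.37%) and 1, ABCA7, was higher at 1.5-fold (10.1%). Each share of called members was near or below its background. The median difference from CTR of the 17 was 0.01 for DSF, 0.12 for IM and -0.03 for IM-DSF, beside 0.00, 0.02 and 0.02 over all genes; these contrasts share the CTR library. The sign of each of these medians depended on the settings: with a mean of at least 5 FPKM the IM value was -0.10 and the DSF value -0.07, and with TPM the IM-DSF value was 0.04.

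**Figure D4:**
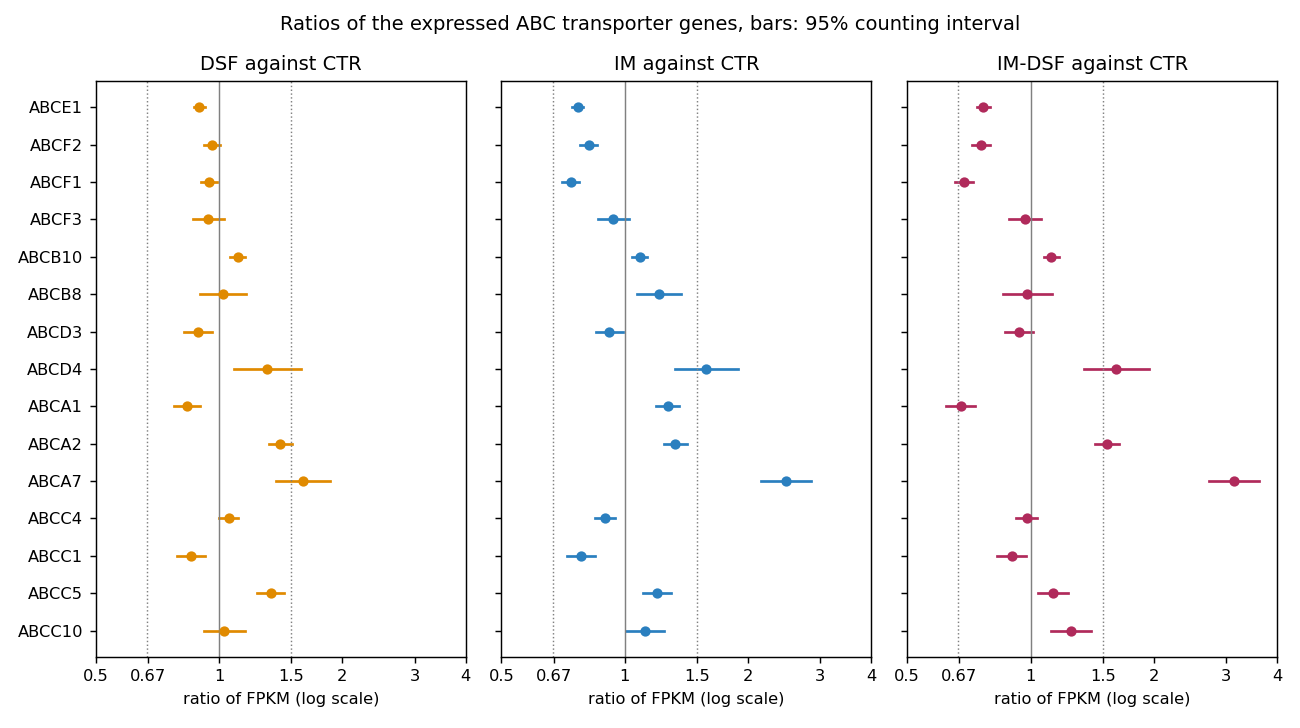
Ratio of FPKM to CTR on a log axis for 15 of the 17 expressed members in DSF, IM and IM-DSF; points are ratios, bars are 95% counting intervals, dotted lines mark 1.5-fold. ABCA7 lies farthest right in all 3 panels, up to 3.13, and ABCF1, at 0.687, and ABCA1, at 0.675, lie farthest left in IM-DSF.

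Among the lipid and sterol genes, ABCA7 had the largest difference of any expressed member on the log2(FPKM + 1) scale. ABCA7 (ENSG00000064687, chromosome 19, 1040101 to 1065572, plus strand) moves phospholipids, takes part in phagocytosis and is an Alzheimer's disease risk gene. It had 1.45 FPKM untreated, 2.33 with DSF, 3.60 with IM and 4.55 with both, from 280, 454, 755 and 752 fragments. Every treated library was above CTR and IM-DSF was the highest. The DSF library had 1.60 times the CTR level (1.38 to 1.86), IM 2.47 times (2.15 to 2.85) and IM-DSF 3.13 times (2.73 to 3.60), and IM-DSF was 1.96 times DSF (1.74 to 2.20). On the log2 scale the IM difference was 0.91 with a pseudocount of 1 and 1.25 with 0.1, which is past the 2-fold rule. Of the 7 myeloid lineage markers, 2 had that order of libraries: ELANE, neutrophil elastase, with 372, 526, 590 and 619 FPKM, and AZU1, azurocidin, with 111, 170, 241 and 247. The others did not. MPO, myeloperoxidase, had 2.49, 3.23, 3.49 and 2.79 FPKM, and SPI1 58.1, 62.4, 70.1 and 52.7, lowest in IM-DSF. The part of these markers in the ABCA7 values was not tested. Other members rose in that order too, among them ABCC2, ABCA3, ABCA5, ABCC6, ABCC10 and ABCD4, and so did TAP1. The share of all genes with that order is not given, so it has no background to be read against.

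ABCA1 had a different order. It exports cholesterol and phospholipid to apolipoprotein A-I, and had 8.93 FPKM untreated, 7.46 with DSF, 11.4 with IM and 6.03 with both. The IM library was the highest and the combination the lowest. IM was 1.27 times CTR (1.19 to 1.36), while IM-DSF was 0.531 times IM (0.490 to 0.574) and 0.808 times DSF (0.742 to 0.881). Its departure from additivity, the log2 difference of IM-DSF from CTR less those of DSF and IM added together, was -0.58 log2 units, and 5.69% of the 11004 genes had a lower value.

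ABCA2, an endosomal and lysosomal sterol transporter, had 5.30, 7.48, 7.03 and 8.14 FPKM in that library order, with CTR the lowest. The DSF library had 1.41 times the CTR level (1.32 to 1.51), IM 1.33 times (1.24 to 1.41) and IM-DSF 1.54 times (1.44 to 1.64), the last of which fell short of the 1.5-fold rule on the log2(FPKM + 1) scale. ABCA5, also a lysosomal lipid transporter, was low, at 0.233, 0.355, 0.540 and 0.664 FPKM, and 2.85 times CTR in IM-DSF (2.10 to 3.90). ABCA5 shares exon bases with ABCA10 on its strand. Like ABCA7 and ABCA2, ABCA5 was lowest in CTR and highest in IM-DSF. ABCG1, which loads cholesterol onto HDL, had 2 fragments in IM-DSF and was listed at 0 elsewhere. ABCG4, a related sterol exporter, had 2, 0, 4 and 3 fragments, and the intestinal sterol pair ABCG5 and ABCG8 was listed at 0.

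The translation group had the highest summed level and was the only group lower in all 3 treated libraries. Its 4 genes summed to 158 FPKM untreated, 147 with DSF, 124 with IM and 119 with both, or 56.1% of the family in CTR and 46.6% in IM-DSF. ABCE1 (ENSG00000164163, chromosome 4, 145097932 to 145129179, plus strand), which splits ribosomes for recycling, had 60.7, 54.3, 46.6 and 46.5 FPKM. ABCF2, a ribosome-associated ATPase, had 52.6, 50.4, 42.9 and 39.8 FPKM. ABCF1, a partner of initiation factor eIF2, had 38.8, 36.7, 28.7 and 26.7 FPKM. For all 3 genes CTR was the highest library and both libraries with IM were below both without it. Outside the members chosen by name, TAP2, PELO, PEX3, MMACHC, ETF1 and GCN1 had this order too. The rest of the 25 pathway genes described further below did not. The share of all genes with this order is not given.

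None of ABCE1, ABCF2 and ABCF1 passed the 1.5-fold rule, except ABCF1 in IM-DSF against CTR with median-of-ratios factors (-0.61 log2 units, -0.52 as deposited). In IM the ratios to CTR were 0.767 for ABCE1 (0.742 to 0.793), 0.816 for ABCF2 (0.779 to 0.854) and 0.738 for ABCF1 (0.705 to 0.774), and in IM-DSF against DSF, which shares no library with that contrast, 0.857 (0.826 to 0.888), 0.789 (0.751 to 0.830) and 0.727 (0.690 to 0.765). ABCF3, a related ATPase with antiviral functions, kept to 5.57 to 5.94 FPKM in all 4 libraries. The 3 genes carry 2361 to 7791 fragments per library, so counting error is small, but the spread between cultures is unknown. ABCF2 shares exon bases with another gene on its strand, and ABCE1 with genes on the opposite strand; whether the counting used strand is not given in the sources used here.

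**Figure D5:**
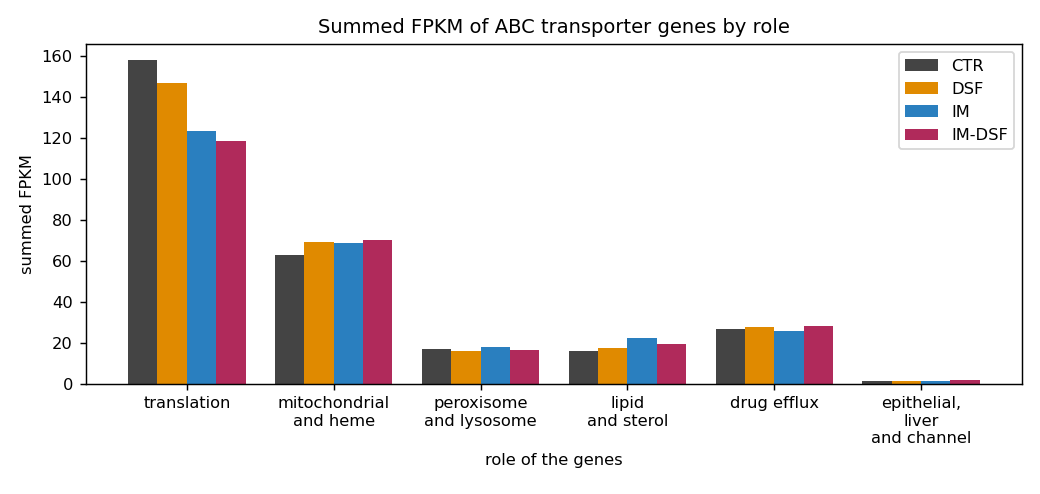
Summed FPKM of the members by role (bars from 0, 1 bar per library). The translation genes sum to 158 FPKM in CTR and 119 in IM-DSF, the mitochondrial genes lie between 62.9 and 70.3, and the 11 drug efflux genes between 25.9 and 28.0.

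The mitochondrial and heme genes differed little. ABCB10, an inner-membrane exporter needed for heme synthesis in erythroid cells, had the highest mean over the libraries on the deposited scale, although ABCE1 was above it in CTR and their ranges overlapped, with 56.0, 62.2, 60.9 and 63.0 FPKM in the same library order. It was lowest in CTR, and IM-DSF was 1.12 times CTR (1.08 to 1.17). That log2 difference was 0.166 as deposited and 0.083 with median-of-ratios factors. ABCB8, a subunit of a mitochondrial potassium channel, had 2.02, 2.07, 2.45 and 1.99 FPKM, with IM above the rest. ABCB6, a porphyrin transporter, was low in every library, at 0.189 to 0.299 FPKM, and shares exon bases with another gene on its strand.

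Of the 5 peroxisome and lysosome genes, 3 were expressed. ABCD3, a peroxisomal importer of branched chain fatty acids, had 8.48, 7.55, 7.77 and 7.95 FPKM and was highest in CTR. ABCD2, a peroxisomal fatty acid importer, had 0.203 to 0.309 FPKM. ABCD4, which exports cobalamin from lysosomes, had 0.811, 1.06, 1.28 and 1.31 FPKM, lowest in CTR, and was 1.58 times CTR in IM (1.33 to 1.89) and 1.62 times in IM-DSF (1.35 to 1.95). It shares exon bases with another gene on its strand. MMACHC, which processes cobalamin in the cytosol, had 3.66, 3.52, 1.79 and 3.20 and was lowest in IM. ABCB9, a lysosomal peptide transporter, was 1.67 times CTR in IM-DSF (1.24 to 2.27) from a low level of 0.229 FPKM. Its exons share bases with genes on the opposite strand, among them ARL6IP4 and OGFOD2, and whether the counting used strand is not given.

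The 13 genes known from epithelia, liver, retina or ion channels included none that was expressed, and 6 of them, ABCA4, ABCA8, ABCA12, ABCC8, ABCC9 and ABCC12, were listed at 0 throughout. ABCC6, the gene mutated in pseudoxanthoma elasticum, had 0.443, 0.570, 0.752 and 1.19 FPKM. It was lowest in CTR and highest in IM-DSF, and its level is uncertain because of near-identical pseudogenes, of which ABCC6P1 had 0.406, 0.244, 0.324 and 0.741 FPKM. ABCB4, the phosphatidylcholine exporter of bile that neighbours ABCB1, had 0.661, 0.631, 0.555 and 0.348 FPKM and was 0.526 times CTR in IM-DSF (0.357 to 0.766). ABCB11, the bile salt export pump, had about 0, 4, 24 and 14 fragments. ABCA6, ABCA9, ABCA10 and ABCA13, lipid transporters of the ABCA subfamily, had at most 16 fragments in any library, the highest being ABCA10 in IM. ABCA10 shares exon bases with ABCA5 on its strand.

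Among 25 other genes of these pathways (family members under other names, nuclear receptors, partners and drug uptake carriers), 17 had a mean of at least 1 FPKM. At 1.5-fold, 2 of the 17 passed in IM against CTR (10.3% of all genes tested), 1 in IM-DSF against CTR (16.3%), 2 in IM-DSF against IM (5.94%), and 0 in DSF against CTR (4.53%) and IM-DSF against DSF (10.1%). They were SLC25A37, the mitochondrial iron importer that ABCB10 stabilises (4.93 FPKM in CTR and 8.04 in IM), MMACHC (lower in IM than in CTR and higher in IM-DSF than in IM), PELO, the ribosome rescue factor that works with ABCE1 (7.85 in CTR and 4.88 in IM-DSF), and PEX19, which targets ABCD proteins to peroxisomes (3.15 in IM and 5.49 in IM-DSF). TAP1 and TAP2, the peptide pump of antigen presentation, had 3.91 and 13.5 FPKM in CTR and 5.72 and 11.0 in IM-DSF, and CFTR was listed at 0.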

How the data were processed

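The authors deposited 1 table of FPKM of 4 columns, 1 per sample, as the column names show (per the file headers). The submitters' processing notes name HISAT2 2.0.4 and GRCh38.p14; the counter, annotation, gene lengths and strand setting were not given in the sources used here. From the values, FPKM times a length and the library denominator was whole (within 0.05, genes up to 1000 fragments) for 98.1% to 98.3% of genes whose exons do not overlap. With length taken as the sum of all distinct GENCODE 29 exons it was whole for 86.8% to 87.1% of genes with overlapping exons, against 9.13% to 9.77% with merged exons. So deposited levels of genes with many isoforms appear lower than with merged exons, by 1.05 to 2.38 times for the expressed members. Fragments came from that length for 26 members; for 10 (among them ABCB4, ABCB6, ABCB11, ABCC2, ABCC4, ABCC6, ABCD3, ABCF2 and ABCG2) from a searched length within 30% that made all 4 libraries whole, so a common factor could be missed. Intervals and the 3-fragment limit cover counting error only; duplicate reads from PCR would widen them.

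Differences used a pseudocount of 1, which understates the change of low genes, and a mean of at least 1 FPKM. The rule named all members at 1 FPKM or more and the efflux pumps with 4 values; other members with values (such as ABCA5, ABCC6 and ABCB4), and the 5 printed windows, were chosen after their values were seen. Alternatives were a pseudocount of 0.1, other filters and 3 scalings, plus merged lengths, chosen after seeing the data. Values of 2 members that enter the counts and sums are not reported here. Members and lists were chosen with earlier results of these data known. Python 3.11.15, numpy 2.4.6, pandas 2.3.3 and scipy 1.17.1 were used.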

Additional observations from a re-analysis of the deposited data

Results flagged for a closer look

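3 members differed in opposite directions for 1 drug without and with the other, with both counting intervals clear of 1. No share of all genes under that interval rule is given, so the count has no background to be read against. With 1 library per group the difference between the contrasts was not tested. Without regard to intervals, the log2 differences of 7 of 17 expressed members had opposite signs for IM without and with DSF (29.1% of 11004 genes), and 5 for DSF without and with IM (44.7%). ABCA1 was 1.27 times CTR in IM (1.19 to 1.36) and 0.808 times DSF in IM-DSF (0.742 to 0.881). ABCC5 was 1.20 times CTR in IM (1.11 to 1.30) and 0.847 times DSF in IM-DSF (0.783 to 0.916). ABCC1 was 0.856 times CTR in DSF (0.791 to 0.926) and 1.15 times IM in IM-DSF (1.05 to 1.25). Of all genes tested, 5.69% had a lower departure from additivity than ABCA1, 10.4% than ABCC5 and 91.2% than ABCC1.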

How the results depend on the processing

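No paired analysis was possible because each group has 1 library. The number of expressed members, 17, was 16 to 22 under other thresholds for expression, TPM and merged exon length (19). With the filter of a mean of at least 5 FPKM it was 12. With merged length ABCE1 had a mean of 73.5 FPKM and ABCB10 of 71.9, which turns their order. The lowest merged-length value of ABCC4 was 18.8 FPKM, while ABCF3 and ABCA2 reached at most 14.1 and 14.6. Counts of called members are small and moved with the settings. With a pseudocount of 0.1, the 1.5-fold rule called, against CTR, 1 of 17 members for DSF, 2 for IM and 3 for IM-DSF (8.47%, 17.3% and 24.7% of all genes), and the 2-fold rule 1 for IM (5.45%). With TPM, under which 22 members passed the filter, the calls at 1.5-fold were 3 for IM and 5 for IM-DSF against CTR (19.6% and 27.1% of all genes) and 3 for IM-DSF against DSF (19.1%), and at 2-fold 1 and 2 for IM and IM-DSF against CTR (6.17% and 9.68%). Without a filter the 1.5-fold rule called 2 of 45 in IM-DSF against CTR (4.64%), and with median-of-ratios factors 2 of 17, 1 higher and 1 lower (17.1%). With a mean of at least 5 FPKM, which removes ABCA7, it called 0 of 12 in IM and IM-DSF against CTR and in IM-DSF against DSF (8.83%, 16.5% and 9.71%), and the 2-fold rule 0 in IM-DSF against CTR (4.01%). The median difference in IM-DSF against DSF was 0.0915 over 22 members with TPM and 0.02 over 17 as deposited, and the median of all genes moved alike, to 0.07 from 0.01. No called difference changed direction under the scalings, while 7 of 85 member differences did, none above 0.07 log2 units. Sizes moved as well, and the counting intervals do not cover the choice of scaling. For ABCE1 in IM against CTR the log2 difference was -0.38 as deposited and -0.44 with nuclear genes only.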
